A study of Mus musculus with 18 samples.

Results

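Bruch membrane is the thin sheet of extracellular matrix between the retinal pigment epithelium (RPE) and the choroid. Described here are 10 genes for its components and remodelling enzymes other than collagens: Timp3, Mmp2, Mmp14, Htra1, Eln, Efemp1, Fbln1, Fbln5, Lox and Loxl1. They were chosen by symbol, and each was found once among the 22558 genes listed for either tissue. RNA had been sequenced from both tissues of mice of mixed 129SV and C57BL/6 strain at postnatal day 30. The mice were homozygous for the Abca4 L541P;A1038V allele (knock-in), lacked Abca4 (Abca4-/-, knockout) or were wild type. Each of these genotypes had 3 libraries per tissue, 18 in all. Abca4 encodes a photoreceptor transporter that clears retinoid compounds, and the labels name no other allele and no treatment in any group.

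Elastic fibres form the middle layer of Bruch membrane. They have a core of elastin, fibulins that guide its assembly, and crosslinks made by lysyl oxidases. Matrix metalloproteinases and the secreted serine protease HTRA1 cut matrix proteins, and TIMP3, which stays bound to the matrix, inhibits metalloproteinases. In humans, mutations in TIMP3 and EFEMP1 cause inherited macular dystrophies with deposits at Bruch membrane, and variants near HTRA1 are associated with age-related macular degeneration.

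Depth ran from 14.6 to 30.0 M fragments per RPE/choroid library and from 11.6 to 23.6 M per retinal library. Abca4 lay between 182 and 233 FPKM (fragments per kilobase of transcript and M fragments) in knock-in, between 73.9 and 81.8 FPKM in knockout and between 228 and 282 FPKM in wild-type retina. RPE markers in RPE/choroid summed to 7438 to 12042 FPKM in knock-in, highest in library 2, 7301 to 7996 FPKM in knockout and 9212 to 9608 FPKM in wild type. Knockout thus lay wholly below wild type, though 0 of the 11 markers were called and 3 had a positive change. In retina the RPE markers summed to 59.7 to 152 FPKM. Rod markers summed to 95.6 to 467 FPKM in RPE/choroid, except for 2486 FPKM in wild-type library 2, and to 22923 to 25601 FPKM in retina. RPE/choroid also carried transcripts of tissue around the eye, with summed markers of 4381 to 6149 FPKM for fibroblasts and sclera, 3954 to 8238 FPKM for skeletal muscle and 1445 to 2124 FPKM for surface epithelium. In retina these lists summed to at most 32.1, 6.41 and 6.97 FPKM. Among the retinal libraries, lens markers summed to 4960.2 FPKM in knock-in library 0, to 4568 and 9399 FPKM in knockout libraries 1 and 2, and to 44.3 to 707 FPKM in the other 6. By Xist and Ddx3y, all 3 knock-in, 2 of 3 knockout and 1 of 3 wild-type retinal libraries were female, and all RPE/choroid libraries except 1 of knock-in were male. No label tells if libraries of 1 group are from different animals, and p-values then reflect only the spread between these samples, which may be technical.

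In the deposited tables (mm9), Timp3 lies at chr10:85511490-85961641, Efemp1 at chr11:28753204-28826743, Fbln1 at chr15:85036437-85116724 and Fbln5 at chr12:102984774-103057265. Eln lies at chr5:135178465-135223124, Htra1 at chr7:138079716-138129172 and Loxl1 at chr9:58135529-58161019. Mmp2 lies at chr8:95351226-95377319 and Mmp14 at chr14:55050440-55060095, and the position of Lox is not given here. Each member had 1 annotated transcript, of 2036 bases for Efemp1 up to 5829 bases for Fbln5. The Timp3 interval is the one that the tables also give to Syn3 and 4930486F22Rik, since Timp3 is nested in Syn3. The sources do not say whether counting used the strand. Syn3 had a median of 1.1 FPKM in RPE/choroid and 2.76 FPKM in retina, below Timp3 in both.

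Promoter sequences were at hand for 6 of the 10 members, from 250 bases before to 50 bases after the start of transcription (RefSeq, GRCm38.p6). The following 4 belong to the members whose highest retinal level was in the same library, knockout library 1. For Fbln1 it is the window of the second of its 2 start sites. Capitals mark matches, on either strand, to TATAAA (the TATA box), GGGCGG (the GC box), CATGTG (an E-box) or TAATCC (the core bound by OTX and CRX). They also mark TGANTCA, a loose pattern that includes the AP-1 site but also other sequences, as N is any base.
Timp3, chr10:86300162-86300461, plus strand: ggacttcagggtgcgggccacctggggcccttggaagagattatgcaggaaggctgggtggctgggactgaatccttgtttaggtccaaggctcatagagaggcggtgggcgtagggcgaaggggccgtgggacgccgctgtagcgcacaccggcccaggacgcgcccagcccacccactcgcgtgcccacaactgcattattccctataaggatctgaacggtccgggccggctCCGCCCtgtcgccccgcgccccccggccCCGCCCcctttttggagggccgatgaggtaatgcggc
Efemp1, chr11:28852955-28853254, plus strand: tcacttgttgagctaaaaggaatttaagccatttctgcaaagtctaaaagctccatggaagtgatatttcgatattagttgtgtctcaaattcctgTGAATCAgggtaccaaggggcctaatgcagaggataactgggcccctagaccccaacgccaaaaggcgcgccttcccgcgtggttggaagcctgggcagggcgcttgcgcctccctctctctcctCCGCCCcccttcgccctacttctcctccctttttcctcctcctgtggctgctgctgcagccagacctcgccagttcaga
Fbln1, chr15:85205758-85206057, plus strand: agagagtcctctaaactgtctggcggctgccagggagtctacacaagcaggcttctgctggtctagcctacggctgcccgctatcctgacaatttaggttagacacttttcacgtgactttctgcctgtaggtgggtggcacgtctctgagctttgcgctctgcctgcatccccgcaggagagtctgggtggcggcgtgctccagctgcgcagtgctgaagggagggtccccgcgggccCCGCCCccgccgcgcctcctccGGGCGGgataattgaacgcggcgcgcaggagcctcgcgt
Htra1, chr7:130935953-130936252, plus strand: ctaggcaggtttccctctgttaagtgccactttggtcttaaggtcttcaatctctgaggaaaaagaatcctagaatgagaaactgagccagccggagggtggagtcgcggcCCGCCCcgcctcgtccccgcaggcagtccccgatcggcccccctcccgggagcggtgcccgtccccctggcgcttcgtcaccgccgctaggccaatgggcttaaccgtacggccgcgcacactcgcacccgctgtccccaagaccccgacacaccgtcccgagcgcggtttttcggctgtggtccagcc

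The Timp3 window and the Fbln1 window held 2 GC boxes each, and those of Efemp1 and Htra1 held 1 each. The window of the first Fbln1 start site, not printed, held 0 matches to any of the motifs and had a GC content of 51.7%. The Efemp1 window also held 1 TGANTCA match. None of the 4 held the letters of the TATA box, the E-box or the OTX and CRX core, and no matches of different motifs overlapped. Of all 32851 promoters of this length, 35.7% held the GC box, 13.6% the TATA box, 7.81% TGANTCA, 14.2% the E-box and 7.06% the OTX and CRX core. GC content was 67.0% for Timp3, 54.3% for Efemp1, 64.0% for Fbln1 and 65.0% for Htra1, where the median of all promoters was 52.7%.

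All 10 genes were higher in RPE/choroid than in retina, in each genotype. In RPE/choroid the inhibitor Timp3 had the highest level, and in retina the protease Htra1 did. The tables of the tissues were normalized separately, so FPKM are set side by side as levels and the main tests between tissues used counts. Limma, run as an alternative, compared these separately scaled FPKM between tissues. In these bulk samples, fewer cells of a type and less RNA per cell cannot be told apart.

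Timp3 in RPE/choroid was 538, 632 and 752 FPKM in knock-in, 627, 727 and 871 FPKM in knockout and 636, 692 and 706 FPKM in wild type, in the order of libraries 0, 1 and 2. The ranges of the 3 genotypes overlapped. Timp3 made up 48.1% to 59.2% of the summed FPKM of the 10 genes in RPE/choroid, where its mean level ranked 110 among all genes, and 15.8% to 18.1% in retina. Htra1 made up 4.91% to 8.54% of the sum in RPE/choroid and 40.5% to 51.8% in retina.

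In mean FPKM over all 9 RPE/choroid libraries, Timp3 (687 ± 94.6, SD) was followed by the fibulin gene Efemp1 (133 ± 30.1) and by the gelatinase gene Mmp2 (85.8 ± 17.0). Htra1 (83.2 ± 9.8) and the fibulin gene Fbln1 (79.7 ± 8.94) came next, then the lysyl oxidase gene Loxl1 (52.5 ± 7.47). Mmp14, whose membrane-bound protease activates the MMP2 precursor, had 45.7 ± 4.61 FPKM and the elastin gene Eln 35.2 ± 9.09 FPKM. Fbln5, for a fibulin that binds both elastin and LOXL1, had 28.5 ± 4.02 FPKM and Lox, the founding lysyl oxidase gene, 17.8 ± 3.13 FPKM. The 9 libraries separated Timp3 from Efemp1, Fbln1 from Loxl1 and Fbln5 from Lox. All other neighbours in this order overlapped in range.

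The retinal order over 9 libraries began with Htra1 at 55.8 ± 8.94 FPKM (SD), Efemp1 at 23.9 ± 5.32 FPKM and Timp3 at 21.1 ± 4.3 FPKM. Fbln1 followed at 7.7 ± 9.41 FPKM, an SD larger than the mean, and Mmp14 at 4.17 ± 0.727 FPKM. Mmp2 had 3.83 ± 0.545, Eln 2.41 ± 0.631, Loxl1 2.4 ± 1.33, Fbln5 0.5 ± 0.17 and Lox 0.102 ± 0.0733 FPKM. Htra1 and Efemp1 did not overlap in range, nor did Loxl1 and Fbln5, and all other neighbours overlapped.

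**Figure D1:**
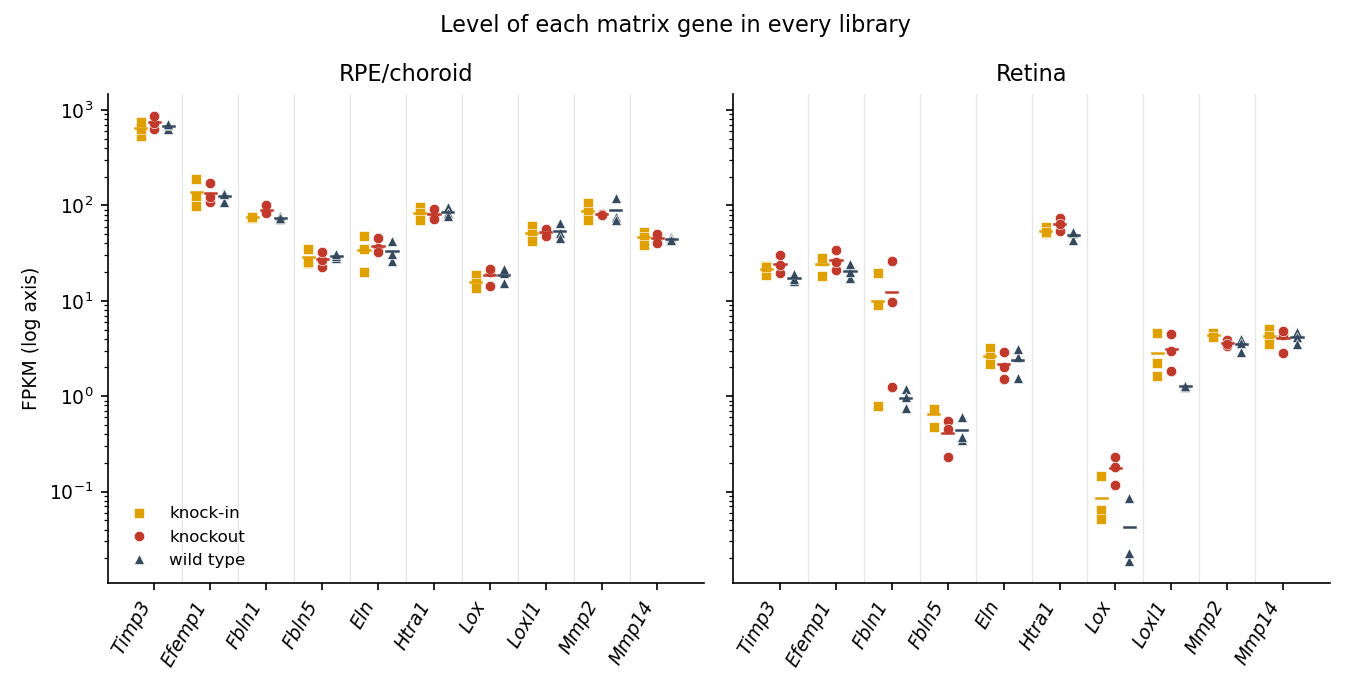
FPKM of the 10 genes on a log axis in RPE/choroid (left) and retina (right), with 1 marker per library, a dash for the mean of 3 libraries, and the genotypes from left to right as knock-in, knockout and wild type. Timp3 is highest in RPE/choroid and Htra1 in retina, and retinal Fbln1 spreads from 0.747 to 26.0 FPKM.

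By edgeR's quasi-likelihood test with Benjamini-Hochberg adjustment, 10 of 10 members rose in RPE/choroid relative to retina in knock-in, in knockout and in wild type. Of all 16222 tested genes, 44.3% were called higher in RPE/choroid in knock-in, 43.9% in knockout and 44% in wild type. The median log2 difference of the 10 members was 4.02 in knock-in, 4.27 in knockout and 4.99 in wild type, and that of all genes 0.03, 0.03 and 0.04. These differences went with the fibroblast, sclera, muscle and surface epithelium markers given above. In wild type, 11 of 11 RPE, 8 of 8 melanocyte and 8 of 8 pericyte and smooth muscle markers were also called higher in RPE/choroid. So were 8 of 9 endothelial and 7 of 8 microglia and macrophage markers. The part of any of these cells in the differences was not tested.

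Of the crosslinking genes, Lox had the largest tissue difference of the 10 members in each genotype. Lox, at 13.6 to 21.8 FPKM in RPE/choroid and 0.0188 to 0.233 FPKM in retina, had a log2 difference of 7.45 (SE 0.327, adjusted p = 6.93e-12) in knock-in, 6.71 (SE 0.307, adjusted p = 1.21e-11) in knockout and 8.83 (SE 0.399, adjusted p = 1.11e-11) in wild type. The retinal side rested on few fragments, 19 in knock-in, 30 in knockout and 5 in wild type, each summed over 3 libraries. On a CPM scale the ratio of RPE/choroid to retina was 173 (110.4 to 287) in knock-in, 103 (71.9 to 153) in knockout and 444 (190.0 to 1368) in wild type, with exact 95% intervals that cover counting error only. The log2 difference of Lox was 8.06 in knock-in without retinal library 0 and 9.57 in wild type without retinal library 2. Loxl1 differed by log2 4.29 (SE 0.336) in knock-in, 4.24 (SE 0.337) in knockout and 5.61 (SE 0.38) in wild type.

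The fibulins and elastin spanned a wide range. Fbln5 differed by log2 5.38 in knock-in, 5.91 in knockout and 5.96 in wild type, and Eln by 3.75, 4.31 and 4.01 in the same genotypes. Fbln1 differed by 3.01 (SE 0.904, adjusted p = 0.00726) in knock-in, 2.95 (SE 0.9, adjusted p = 0.00811) in knockout and 6.42 (SE 1.15, adjusted p = 0.000165) in wild type. With only the 6 libraries of the genotype in the fit, Fbln1 missed the threshold in knock-in (log2 2.97, adjusted p = 0.0523) and in knockout (log2 2.90, adjusted p = 0.0587). It was 3.89 in knock-in without retinal library 0 and 4.05 in knockout without retinal library 1, and its range with 1 library left out was 2.46 to 3.89 and 2.40 to 4.05. Efemp1, at 97.7 to 188 FPKM in RPE/choroid and 17.5 to 34.1 FPKM in retina, differed by log2 2.39 in knock-in, 2.20 in knockout and 2.56 in wild type.

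Among proteases and their inhibitor, Timp3 differed by log2 4.82 in knock-in, 4.85 in knockout and 5.19 in wild type (SE 0.137, 0.137 and 0.14). Mmp2 differed by 4.36, 4.61 and 4.79 and Mmp14 by 3.51, 3.60 and 3.57 in the same genotypes. Htra1 had the smallest difference of the 10, with log2 0.75 (SE 0.112, adjusted p = 8.88e-06) in knock-in, 0.51 (SE 0.112, adjusted p = 0.000485) in knockout and 1.03 (SE 0.113, adjusted p = 2.61e-07) in wild type.

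**Figure D2:**
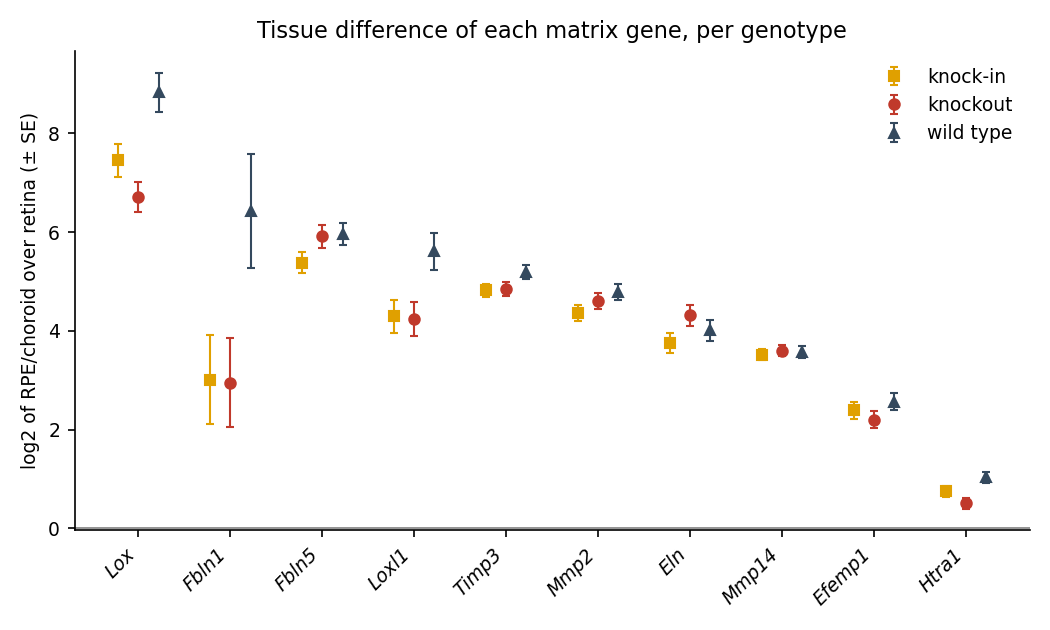
log2 of RPE/choroid over retina with its SE for each gene in knock-in, knockout and wild type, from the fit of all 18 libraries. All values lie above 0, from 0.51 for Htra1 in knockout to 8.83 for Lox in wild type.

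Other genes of elastic fibres, basement membranes and matrix proteolysis followed the same tissue pattern with few exceptions. Of 18 further elastic fibre genes, 18 rose in RPE/choroid relative to retina in each genotype, where 43.9% to 44.3% of all genes did. In wild type the microfibril genes Mfap5 (64.4 FPKM in RPE/choroid, 0.238 FPKM in retina, log2 7.95) and Mfap4 (log2 7.90) differed most, then Emilin2 (log2 6.37). Of 18 genes for laminins and other basement membrane proteins, 16 rose and 2 fell in each genotype. In wild type 13934 of all 16222 genes were called in either direction, 7136 of them (44%) higher in RPE/choroid. In wild type, Lamb3 (log2 6.52), Nid1 (6.50) and Nid2 (6.25) had the largest differences. The genes that fell were Vtn, for vitronectin, with 26.0 FPKM in RPE/choroid and 516 FPKM in retina of wild type, and Lama1, with 0.637 FPKM in RPE/choroid and 1.23 FPKM in retina of wild type.

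Of 19 other proteases and inhibitors, 17 rose in wild type and 16 in knock-in and knockout, and 1, the gelatinase gene Mmp9, fell in each. Of all genes, 44%, 44.3% and 43.9% rose in wild type, knock-in and knockout. Mmp9 had 0.820 FPKM in RPE/choroid and 6.69 FPKM in retina of wild type (log2 -2.93, adjusted p = 1.34e-10). The stromelysin gene Mmp3 had 62.1 FPKM in RPE/choroid of wild type and no fragment in wild-type retina. The collagen-processing gene Adamts2 (log2 6.91) and Htra3 (log2 5.76), a relative of Htra1, were the next in size.

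In retina no member passed edgeR's test in any genotype comparison. The log2 change over wild type was positive for 9 of 9 tested members in knock-in (median 0.27) and for 6 of 9 in knockout (median 0.40), where the median of all genes was 0.00 in both. It was largest for Fbln1 and Loxl1. The comparisons of knock-in and of knockout with wild type share the wild-type libraries. In knockout against wild type 0 of 9 tested members were called, where 0.98% of all genes were. At an unadjusted p under 0.05 edgeR gave 3 members, DESeq2 gave 4 and limma on log2 FPKM 3. The share of all genes under this unadjusted threshold was not counted, here or for the comparisons below. Such counts therefore cannot show an excess among the members. After adjustment DESeq2 called 2 of 9 members, Timp3 (adjusted p = 0.0134) and Htra1 (adjusted p = 0.03), where it called 2.23% of all genes, and limma 0. Lox, with at most 13 fragments in a retinal library, was too low for these tests.

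Retinal Timp3 was 23.2, 18.5 and 22.5 FPKM in knock-in, 19.7, 29.9 and 23.8 FPKM in knockout and 16.1, 16.9 and 19.0 FPKM in wild type (libraries 0, 1 and 2). All knockout libraries lay above all wild-type libraries, while knock-in overlapped wild type. The log2 change in knockout was 0.47 (SE 0.148, adjusted p = 0.236), and in knock-in 0.27 (SE 0.147, adjusted p = 0.681). Retinal Htra1 was 59.4, 51.5 and 52.2 FPKM in knock-in, 53.9, 74.7 and 63.3 FPKM in knockout and 50.8, 43.9 and 52.3 FPKM in wild type. Knockout again lay wholly above wild type, with a log2 change of 0.40 (SE 0.119, adjusted p = 0.189). Without knockout library 0, the knockout fit called Htra1 (log2 0.50, adjusted p = 0.0304), 1 member where 1.71% of all genes were called.

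Retinal Efemp1 was 25.9, 18.2 and 28.1 FPKM in knock-in, 21.1, 34.1 and 25.7 FPKM in knockout and 17.5, 20.0 and 24.2 FPKM in wild type. Its groups overlapped, and the log2 change was 0.21 in knock-in (adjusted p = 0.848) and 0.42 in knockout (adjusted p = 0.474).

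Retinal Fbln1 was 19.7, 0.796 and 9.01 FPKM in knock-in, 1.26, 26.0 and 9.7 FPKM in knockout and 0.747, 1.18 and 0.971 FPKM in wild type. Each mutant thus held 2 libraries far above wild type and 1 library at or near it. Knockout did not overlap wild type only because its lowest library, 1.26 FPKM, lay just above the highest wild-type library, 1.18 FPKM. The log2 change was 3.35 in knock-in (SE 1.6, adjusted p = 0.651) and 3.70 in knockout (SE 1.6, adjusted p = 0.421).

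Retinal Loxl1 showed the same libraries high, at lower levels. It was 4.61, 1.64 and 2.24 FPKM in knock-in, 1.83, 4.46 and 2.99 FPKM in knockout and 1.3, 1.24 and 1.28 FPKM in wild type. Both mutants lay wholly above wild type. The log2 change was 1.16 in knock-in (SE 0.505, adjusted p = 0.601) and 1.31 in knockout (SE 0.508, adjusted p = 0.361). Counted over the list, 2 of 9 members lay wholly above wild type in knock-in, Loxl1 and Mmp2, where 5.16% of all genes did. In knockout 4 of 9 did, Timp3, Fbln1, Htra1 and Loxl1, where 6.66% of all genes did. No member lay wholly below wild type in either mutant, where 3.61% of all genes did in knock-in and 5.17% in knockout.

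Other transcripts were high in the same retinal libraries. The fibroblast and sclera list of 11 genes summed to 31.6, 7.43 and 16.8 FPKM in knock-in, 9.14, 32.1 and 29.0 FPKM in knockout and 7.65, 9.38 and 11 FPKM in wild type. Its 4 highest libraries were the 4 with the highest Fbln1 and Loxl1. Of its 8 tested genes 0 were called in either mutant against wild type. The change was positive for 7 in knock-in and for 6 in knockout, where it ran from -0.86 to 3.43. In knockout 0 lay wholly above and 1 wholly below wild type, where 6.66% and 5.17% of all genes did. Not all genes of the list thus followed its sum. Fmod, for the collagen-binding fibromodulin, was among the genes most like Loxl1 over these libraries. It was 10.8, 1.11 and 4.7 FPKM in knock-in, 1.11, 12.4 and 5.48 FPKM in knockout and 1.11, 0.838 and 0.989 FPKM in wild type. Col1a1, the main collagen gene of sclera, stayed between 0.194 FPKM in knockout library 2 and 1.95 FPKM in knock-in library 0. Dpt and Kera had no fragment in wild-type retina.

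Lens markers were high in 3 of the 4 libraries with high Fbln1, and knock-in library 2 had high Fbln1 at a lens sum of 431 FPKM. The RPE list of 11 genes summed to 86.4 to 105 FPKM in knock-in, 93.2 to 152 FPKM in knockout and 59.7 to 71.9 FPKM in wild type, and 4 of the 11 were called higher in knockout. Its highest sum was in knockout library 0, where Fbln1 and Loxl1 were low. Leaving out the 3 lens-rich libraries took away knockout libraries 1 and 2, those of knockout with high Fbln1. Only knockout library 0 remained, assumed to vary like the rest. Its Fbln1, 1.26 FPKM, was already near wild type, so a low change followed from which library was left. The knockout log2 change was 0.30 for Fbln1, 0.38 for Loxl1, 0.21 for Timp3 and 0.17 for Htra1. The knock-in values were then 2.47 for Fbln1 and 0.72 for Loxl1. With a term for lens content in place of leaving libraries out, Fbln1 had a log2 change of 1.67 (SE 1.55) in knock-in and 1.02 (SE 1.84) in knockout. Loxl1 then had 0.52 (SE 0.371) and 0.36 (SE 0.426). With a term for fibroblast and sclera content, added after the data were seen, Fbln1 had 1.02 (SE 0.764) and 1.14 (SE 0.767). Loxl1 had 0.50 (SE 0.21) and 0.57 (SE 0.216) with it. Whether the changes with and without a term differ was not tested. With a term for RPE content Fbln1 had 7.95 (SE 2.08) and 9.30 (SE 2.4) and Loxl1 2.57 (SE 0.605) and 3.13 (SE 0.731). The RPE sums of wild type lay wholly below those of both mutants, so this term and genotype could not be well separated. No member was called in these fits.

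**Figure D3:**
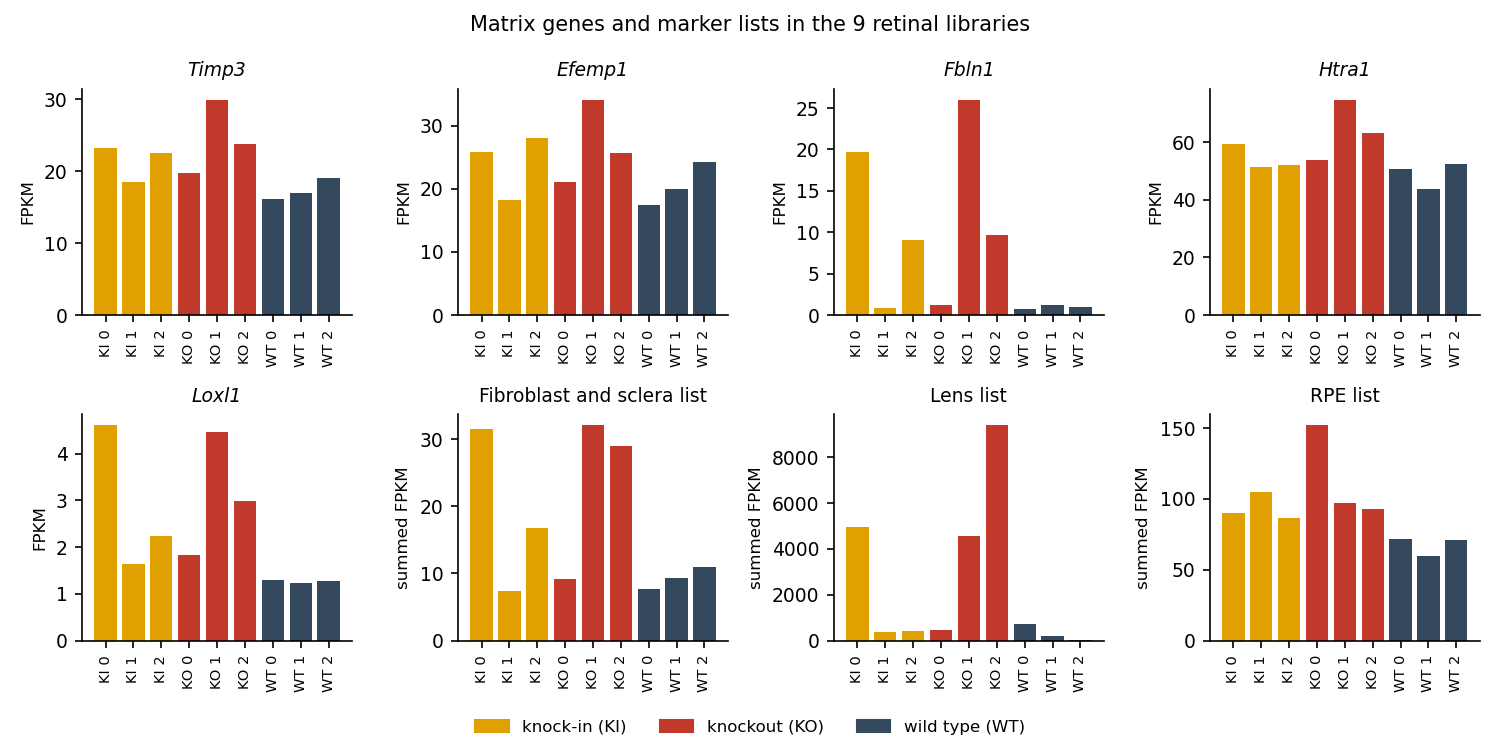
FPKM of 5 matrix genes and summed FPKM of 3 marker lists in each of the 9 retinal libraries, as bars coloured by genotype and labelled with the library number of the tables. Fbln1 and Loxl1 stand high in knock-in 0 and 2 and in knockout 1 and 2, as the fibroblast and sclera list does, while the lens list is high in only 3 of these 4.

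Of the metalloproteinase genes, Mmp2 did not overlap between knock-in retina and the other genotypes and Mmp14 did, and neither was called. Retinal Mmp2 was 4.49, 4.65 and 4.14 FPKM in knock-in, 3.85, 3.35 and 3.56 FPKM in knockout and 3.94, 3.57 and 2.94 FPKM in wild type. Knock-in lay wholly above each of the other genotypes, where 5.16% of all genes lay wholly above wild type and 5.69% wholly above knockout. The share above both was not counted. The log2 change in knock-in was 0.36 against wild type (SE 0.104, adjusted p = 0.251) and 0.32 against knockout (SE 0.102, adjusted p = 0.184). Mmp14 differed by log2 0.07 in knock-in and -0.04 in knockout against wild type, within the spread of its libraries. Retinal Eln lay between 2.16 and 3.18 FPKM in knock-in, 1.51 and 2.93 FPKM in knockout and 1.56 and 3.13 FPKM in wild type. Retinal Fbln5 lay between 0.48 and 0.732 FPKM in knock-in, 0.231 and 0.55 FPKM in knockout and 0.351 and 0.606 FPKM in wild type. Eln and Fbln5 thus overlapped between all 3 genotypes. Retinal Lox was 0.144, 0.0645 and 0.0515 FPKM in knock-in, 0.116, 0.182 and 0.233 FPKM in knockout and 0.0188, 0.0226 and 0.085 FPKM in wild type, each from 1 to 13 fragments.

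In knock-in against wild type retina, 0 of 9 members passed edgeR's test, where 0.265% of all genes did. Unadjusted p was under 0.05 for 1 member by edgeR, 4 by DESeq2 and 2 by limma, and neither DESeq2 nor limma called any. In knock-in against knockout retina 0 of 9 passed, where 1.26% of all genes did, with 1 member under an unadjusted p of 0.05 by edgeR, 2 by DESeq2 and 1 by limma, and none called by these tools either. There Mmp2 was the only member whose groups did not overlap, where 5.69% of all genes lay wholly higher and 5.08% wholly lower. Fbln5 (log2 0.60, adjusted p = 0.459) and Eln (log2 0.35, adjusted p = 0.508) had the next smallest p-values.

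The authors' deposited table, made with Cufflinks tools, calls more of these retinal differences. At q under 0.05 the authors' deposited table lists 5 of 8 tested members as different in knockout against wild type, where it lists 3.44% of all genes. According to the authors' deposited table these are Timp3, Fbln1 and Loxl1 (q = 0.00293 each), Htra1 (q = 0.0186) and Efemp1 (q = 0.0447). For knock-in against wild type the authors' deposited table calls 2 of 9, Fbln1 and Loxl1 (q = 0.00293 each), where it calls 2.11% of all genes. It calls 0 members in knock-in against knockout retina and 0 in the 3 RPE/choroid comparisons (the authors' deposited table, 2.34% and 2.36% to 2.9% of all genes).

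In RPE/choroid, where the 10 genes are high, no member passed the test between genotypes. By edgeR 0 of 10 members were called in knock-in against wild type (0.0647% of all genes), in knockout against wild type (0.472%) and in knock-in against knockout (0.453%). Unadjusted p was under 0.05 for 0, 0 and 1 members in this order by edgeR, for 0, 1 and 2 by DESeq2 and for 0, 1 and 1 by limma, and neither DESeq2 nor limma called any. The log2 changes of the 10 ran from -0.19 to 0.05 in knock-in, with a median of -0.06, and from -0.16 to 0.21 in knockout, with a median of -0.02. The medians of all genes were 0.00 and -0.01.

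Fbln1 had the smallest p in knockout. It was 74.8, 74.2 and 76.0 FPKM in knock-in, 86.1, 82.5 and 100.3 FPKM in knockout and 71.8, 76.8 and 74.4 FPKM in wild type. All knockout libraries lay above all others, and it was the only member of 10 wholly above wild type, where 5.56% of all genes were (4.87% wholly below). It was also the only one wholly lower in knock-in than in knockout, where 4.68% of all genes were, and 4.7% wholly higher. The log2 change was 0.21 in knockout against wild type (SE 0.0954, adjusted p = 0.329) and -0.25 in knock-in against knockout (SE 0.0955, adjusted p = 0.336). Without knockout library 2 these changes were 0.11 and -0.15. No member of 10 was wholly above or below wild type in knock-in, where 2.94% of all genes were wholly above and 1.9% wholly below.

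Proteases and crosslinkers overlapped between genotypes. Htra1 lay between 69.7 and 95.6 FPKM in knock-in, 72.3 and 91.6 FPKM in knockout and 78.1 and 96.9 FPKM in wild type. Its log2 change was -0.09 in knock-in (SE 0.0863, adjusted p = 0.906) and -0.14 in knockout (SE 0.0862, adjusted p = 0.481). Loxl1 lay between 42.8 and 61.1 FPKM in knock-in and 45.1 and 65.5 FPKM in wild type, with a log2 change of -0.13 (SE 0.0804, adjusted p = 0.875). Timp3 had a log2 change of -0.08 in knock-in against wild type (SE 0.0939, adjusted p = 0.926) and of -0.20 against knockout (SE 0.094, adjusted p = 0.425).

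Eln had the largest ratio of highest to lowest library of the 10 members within knock-in, 2.38. It was 48.1, 34.9 and 20.2 FPKM in knock-in, 45.5, 35.7 and 32.3 FPKM in knockout and 42.7, 26.0 and 31.3 FPKM in wild type. The groups overlapped, and knock-in against knockout differed by log2 -0.19 (adjusted p = 0.712). Knock-in library 2, with the lowest Eln, also had the highest RPE sum and the lowest Col1a1, 329.9 FPKM where the other RPE/choroid libraries had 439.5 to 1212 FPKM. With a term for fibroblast and sclera content, Eln had a log2 change of 0.21 in knock-in (adjusted p = 0.867) and 0.34 in knockout (adjusted p = 0.18) against wild type, where it had -0.05 and 0.14 without the term. Between knock-in and knockout it then had -0.13 (adjusted p = 0.628). Fbln5 in knockout had a log2 change of -0.12 against wild type (SE 0.0775, adjusted p = 0.492).

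The remaining members also overlapped between genotypes in RPE/choroid. Efemp1 lay between 97.7 and 188 FPKM in knock-in, 108 and 173 FPKM in knockout and 109 and 136 FPKM in wild type. Mmp2 lay between 69.5 and 107 FPKM in knock-in, 80.2 and 82.1 FPKM in knockout and 70.8 and 120.1 FPKM in wild type, so that its knockout libraries were the closest together. Mmp14 lay between 38.9 and 53.2 FPKM in knock-in, 40.0 and 50.5 FPKM in knockout and 43.4 and 47.0 FPKM in wild type. Lox and Fbln5 were the lowest of the 10 in each genotype's mean. Lox lay between 13.6 and 18.8 FPKM in knock-in, 14.3 and 21.8 FPKM in knockout and 15.4 and 21.3 FPKM in wild type. Fbln5 lay between 25.2 and 35.2 FPKM in knock-in, 22.4 and 32.8 FPKM in knockout and 28.2 and 30.9 FPKM in wild type.

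**Figure D4:**
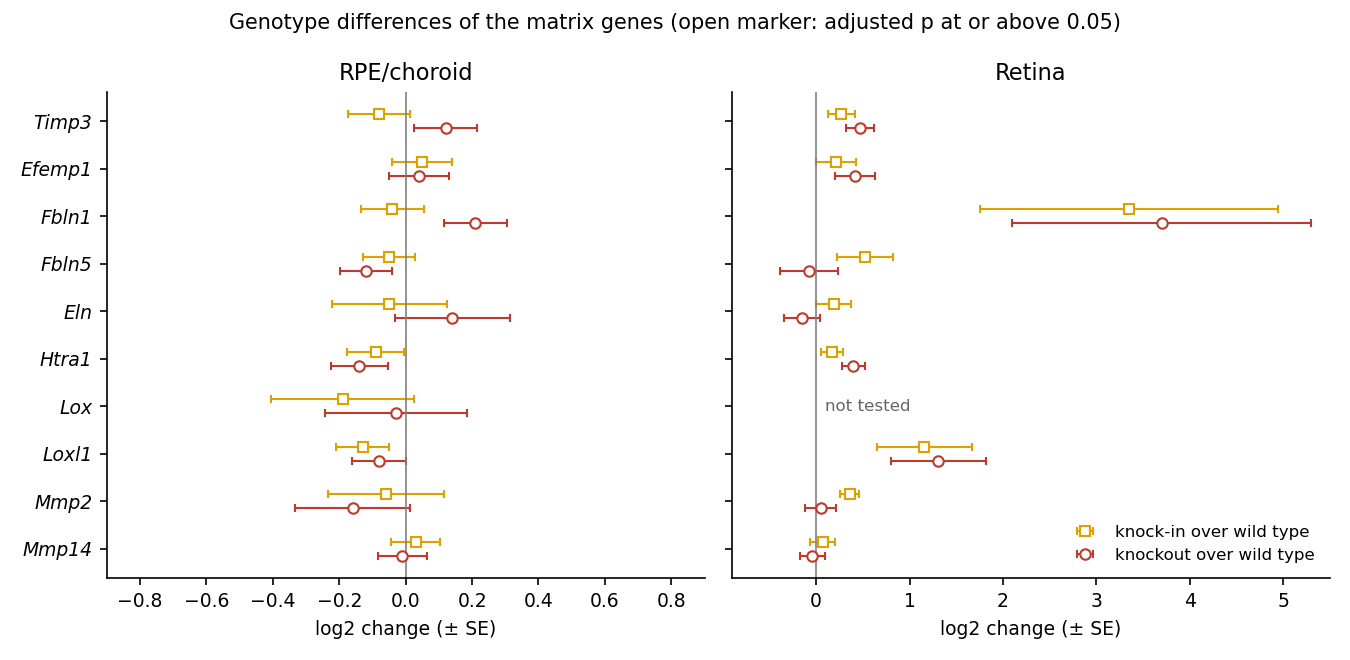
log2 change with its SE of knock-in and of knockout over wild type, in RPE/choroid (left) and retina (right, on a wider axis), from the fit of 9 libraries per tissue. Open markers show that no change passed an adjusted p of 0.05, with RPE/choroid changes between -0.19 and 0.21 and retinal Fbln1 at 3.35 and 3.70.

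No member's genotype effect passed the test of a difference between tissues. In the interaction of knock-in with tissue 0 of 10 members passed, where 0.0555% of all genes did, and 4 had an unadjusted p under 0.05 by edgeR, 4 by DESeq2 and at most 1 by limma. In that of knockout 0 of 10 passed, where 0.136% of all genes did, and 4 had an unadjusted p under 0.05 by edgeR, 4 by DESeq2 and at most 3 by limma. DESeq2 and limma called none, and the share of all genes under that unadjusted p was not counted. A negative value means that the effect in RPE/choroid was lower than in retina. The sexes of the libraries, given above, were also spread unevenly over tissues and genotypes. For knock-in the smallest p-values were those of Loxl1 (log2 -1.31, SE 0.483, adjusted p = 0.815), Fbln1 (-3.41, SE 1.39) and Timp3 (-0.37, SE 0.166), with the same adjusted p. For knockout they were those of Htra1 (log2 -0.52, SE 0.159, adjusted p = 0.201), Loxl1 (-1.37, SE 0.485, adjusted p = 0.28) and Lox (-2.12, SE 0.86, adjusted p = 0.348).

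The wider matrix lists were tested in the same fits. In retina, edgeR called 0 of 17 tested genes of elastic fibres, 0 of 14 proteases and inhibitors and 0 of 17 of basement membranes in each of the 3 comparisons. Of all genes it called 0.265% to 1.26% there. In knock-in against wild type the change was positive for 17, 12 and 16 of these genes, with medians of 0.51, 0.22 and 0.41. In knockout against wild type it was positive for 15, 11 and 14, with medians of 0.44, 0.12 and 0.29. The smallest p-values in knock-in against wild type belonged to Mfap2 (log2 0.72, adjusted p = 0.533), Mmp15 (0.37, adjusted p = 0.533) and Vtn (-0.20, adjusted p = 0.304). In knockout against wild type they belonged to Emilin1 (log2 0.46, adjusted p = 0.285), Adamts2 (1.38, adjusted p = 0.147) and Lama1 (0.40, adjusted p = 0.312). Between knock-in and knockout they belonged to Ltbp4 (log2 0.49, adjusted p = 0.177), Adamts2 (-1.36, adjusted p = 0.106) and Lama4 (0.54, adjusted p = 0.222).

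In RPE/choroid a single gene of these lists passed. Lama3, for a laminin chain of epithelial basement membranes, rose to 6.62 FPKM in knockout, against 4.86 FPKM in wild type (log2 0.42, SE 0.0712, adjusted p = 0.0443). It was 1 of 18 basement membrane genes, where 0.472% of all genes were called. In knock-in against wild type 0.0647% of all genes were called, and in knock-in against knockout 0.453%. None of the 18 elastic fibre genes, of the 19 proteases and inhibitors or of the other basement membrane genes passed in any of the 3 comparisons. In knock-in against wild type the smallest p-values were those of Fbln7 (log2 -0.18), Mmp11 (0.36) and Lama3 (0.24), with adjusted p-values of 0.819, 0.758 and 0.758. In knockout against wild type Ltbp4 had log2 -0.23 (adjusted p = 0.148) and Timp4, a relative of Timp3, 0.85 (adjusted p = 0.301). Between knock-in and knockout Ltbp1 had log2 0.14 (adjusted p = 0.281), Reck, for a membrane-anchored metalloproteinase inhibitor, -0.21 (adjusted p = 0.198) and Agrn -0.21 (adjusted p = 0.157).

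For each member, the genes with the most similar pattern over the 9 RPE/choroid libraries were sought among 13702 genes with a mean of at least 1 FPKM, by Pearson's r of TMM-scaled log2 CPM. The points share dissection and scaling, and the values are given as a description. Timp3 was most like Adamtsl3, for a secreted matrix protein (r = 0.964), and Emb (r = 0.947). Lox was most like the collagen genes Col4a2 (r = 0.942) and Col6a1 (r = 0.935). Fbln1 was most like Tbpl1 (r = 0.965) and Mxi1 (r = 0.928), and Efemp1 like Tmem161a (r = 0.946) and M6pr (r = 0.944). The nearest gene was Eif3g for Fbln5 (r = 0.955), Dgcr8 for Eln (r = 0.915), Fbxo9 for Htra1 (r = 0.924), 5033414D02Rik for Mmp2 (r = 0.931) and Mad2l1 for Mmp14 (r = 0.941), while Loxl1 had Rpf1 and Card14 (r = 0.913 each).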

How the data were processed

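Stranded total RNA depleted of ribosomal RNA had been sequenced as 100-base read pairs from retina and RPE/choroid, per the labels' protocols. The submitters' processing notes name TopHat, Bowtie2, Cufflinks and the build mm9. Tool versions and gene annotation: not given in the sources used here. Per the file headers, the deposited tables give estimated counts of fragments per gene and library before scaling, of which 98.5% (retina) and 98.4% (RPE/choroid) were whole, and 10 and 3 gene estimates were marked as failed. The authors' FPKM are per kilobase and M fragments, scaled within a tissue. The authors' deposited p-values and q-values compare pairs of genotypes. The deposited isoform tables gave transcript lengths. Libraries are numbered 0 to 2 in the tables and 1 to 3 in the labels, with nothing to link these numbers, so libraries are named by genotype and table number.

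Estimated counts were rounded and tested with edgeR 4.0.16 (quasi-likelihood, robust, TMM, filterByExpr) in R 4.3.3, in a fit of 9 libraries per tissue (14699 genes in retina, 15454 in RPE/choroid) and a fit of all 18 (16222 genes) for tissue and for the difference of genotype effects. P-values were adjusted by Benjamini-Hochberg over all tested genes, with a threshold of 0.05. SEs were derived from the p-value. Alternatives used DESeq2 1.42.0 and limma 3.58.1 on log2(FPKM + 1) and log2(FPKM + 0.1), other filters and scalings, terms for sex and for marker content, and left-out libraries. Scripts were tested on simulated data. No pair of libraries within a group was a copy (18 pairs, lowest chi-square per gene 3.28). All 10 members are described. Log2 changes with tests are given for called members or for the smallest p-values up to 3, for other lists the 3 largest called changes or the smallest p, and 2 genes of most similar pattern per member. Other members' values were added where a group was described. The members and lists were chosen with earlier results of these data known.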

Additional observations from a re-analysis of the deposited data

How the results depend on the processing

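All 10 members stayed higher in RPE/choroid in each genotype under every alternative run except for Fbln1, which missed the threshold in knock-in (log2 2.97, adjusted p = 0.0523) and knockout (log2 2.90, adjusted p = 0.0587) when only the groups of the contrast were fitted. In retinal knockout against wild type the count of 0 called members became 2 by DESeq2 (Timp3, log2 0.48, and Htra1, log2 0.40), and 0 to 1 when a library was left out, with Htra1 called without knockout library 0 (log2 0.50, adjusted p = 0.0304). The cause was not tested. Retinal Efemp1 in knock-in, 0.21, turned to -0.04 with a term for fibroblast and sclera content, and retinal Mmp14, near 0 in both mutants, also took both signs. Other directions turned too. In retinal knockout against wild type Eln ran from -0.48 to 0.66, Fbln5 from -0.49 to 0.30 and Mmp2 from -0.05 to 0.12. In retinal knock-in against knockout Fbln1 ran from -1.35 to 2.18 and Loxl1 from -0.58 to 0.34. In RPE/choroid Efemp1, Eln, Fbln1, Htra1, Lox, Mmp2 and Mmp14 each took both signs in some genotype comparison. Among the members with the smallest p-values of each comparison, no direction reversed. In the other genotype comparisons the count stayed 0 under the alternatives run. Log2 changes in retinal knockout ran from 0.29 to 0.50 for Htra1, from 0.29 to 0.59 for Timp3 and from 1.05 to 1.63 for Loxl1 with a library left out. In retina against wild type, a term for sex gave Fbln1 1.76 (SE 1.88), Loxl1 0.55 (SE 0.506), Timp3 0.10 (SE 0.154) and Htra1 -0.01 (SE 0.102) in knock-in. Without the term these were 3.35, 1.16, 0.27 and 0.17. In knockout it gave Fbln1 2.44 (SE 1.77), Loxl1 0.93 (SE 0.449), Timp3 0.38 (SE 0.134) and Htra1 0.30 (SE 0.0887). All 3 knock-in retinal libraries were female. The effect of sex thus came from knockout and wild type only, and sex was partly confounded with genotype. A term for RPE content, which could not be well separated from genotype, gave Timp3 0.69 (SE 0.197) in knock-in and 1.03 (SE 0.244) in knockout. A term for lens content gave Timp3 0.14 (SE 0.155) in knock-in and 0.27 (SE 0.181) in knockout. It gave Htra1 0.04 (SE 0.114) and 0.20 (SE 0.133). A term for fibroblast and sclera content was chosen after seeing the data, like the fit without lens-rich libraries. It gave Timp3 0.09 (SE 0.0745) and 0.25 (SE 0.0781) and Htra1 0.03 (SE 0.0856) and 0.23 (SE 0.0893).

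With the table number as a replicate block, 0 members were called in each genotype comparison and 10 between tissues in each genotype, and over all genes 194 in place of 144 were called in retinal knockout and 28 in place of 73 in RPE/choroid knockout, both against wild type. Deviations of same-numbered libraries correlated between -0.49 and 0.25 in retina and between -0.14 and 0.13 in RPE/choroid, and 3 of 9 libraries in each tissue correlated best with their own number, so the numbers were not taken as pairs. Depth limits retinal Lox, with 1 to 13 fragments per library.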

Other observations

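Over the 9 retinal libraries, a search added after the values were seen gave Crhbp (r = 0.993), which encodes a binding protein of corticotropin-releasing hormone, and the matrix gene Ltbp2 (r = 0.986) as most like Fbln1 among 12850 genes. Crhbp was 13.1, 2.29 and 9.42 FPKM in knock-in, 2.35, 17.8 and 9.34 FPKM in knockout and 1.99, 2.35 and 3.19 FPKM in wild type. Ltbp2 was 2.89, 0.233 and 1.25 FPKM in knock-in, 0.245, 3.73 and 1.19 FPKM in knockout and 0.332, 0.265 and 0.216 FPKM in wild type. Both were high in knock-in libraries 0 and 2 and knockout libraries 1 and 2, where Fbln1 was high. This follows from the search, which picked genes by their likeness to Fbln1 over these same libraries. Loxl1 was most like the transporter gene Slc16a12 (r = 0.986) and Fmod (r = 0.971). These values of Pearson's r on TMM-scaled log2 CPM describe libraries that share dissection and scaling.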
